A study of Xenopus laevis with 12 samples.

Results

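The 5 transcripts described here, brf1.L (gene13586), sec62.L (gene2044), txndc15.L (gene5144), pla2g4a.L (gene8590) and tmtc2.L (gene13764), were chosen because they were highest in the libraries labelled IgG, which carry the label of the control antibody. They are 5 of the 51061 genes in the count files, were found by gene name in the authors' deposited tables, and all passed the filter on low counts that left 20803 genes to test. Their values against IgG chose them, so those values are a description and carry no test. The suffixes .L and .S mark the long and short subgenome copies of a gene in Xenopus laevis, an allotetraploid frog.

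The libraries came from Xenopus laevis oocytes pooled from stages II and III, whose lysate was run over a size exclusion column so that fractions rich in L-bodies could be pooled. RNA was then immunoprecipitated from that pool with an antibody to Staufen, an antibody to hnRNPab, or IgG, and sequenced as 150 bp read pairs, with 4 libraries for each label and 12 in all. All 3 groups share the oocyte stages and the column, and no library of unprecipitated lysate was analysed here. Whether the 4 replicates of a group are separate frogs is not stated, so a p-value measures how far these libraries vary, and that variation may be technical. A level is that of a transcript in the precipitate, relative to the rest of its own library, and its amount in the oocytes was not measured here. In bulk libraries of this kind, fewer cells carrying a transcript and less of it per cell also cannot be told apart.

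L-bodies are large RNA and protein assemblies in the vegetal cytoplasm of growing Xenopus oocytes that hold mRNAs on their way to the vegetal cortex. Staufen binds double-stranded RNA, and hnRNPab belongs to the heterogeneous nuclear ribonucleoprotein A/B family; both are known components of the transport particles. An IgG precipitate measures the RNA that comes down without a specific antibody. The 5 transcripts encode proteins of unlike function. Brf1 is a subunit of TFIIIB, the factor that brings RNA polymerase III to tRNA genes. Sec62 helps move finished proteins through the Sec61 channel into the endoplasmic reticulum (ER) and in mammalian cells also acts as a receptor for ER-phagy. Txndc15 is a thioredoxin-domain membrane protein whose human gene is mutated in Meckel syndrome, a disease of cilia. Pla2g4a is the cytosolic phospholipase A2 that releases arachidonic acid from membranes, and Tmtc2 is an ER membrane protein of the family that, in human cells, adds O-linked mannose to cadherins.

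Depth was 14147584 to 22103431 counts assigned to genes per library. Reads that fell in no annotated feature were 13.4 to 14.8% in the Staufen libraries, 11.0 to 12.9% in the hnRNPab libraries and 16.9 to 19.6% in the IgG libraries, so this share was also highest under the IgG label, and its part in the values below was not tested. Of 17 oocyte marker symbols, only some were named in the files, as 11 gene copies that include .L and .S pairs. Their summed level was 1637 to 2161 CPM (counts scaled to a common library size) in Staufen libraries. It was 3062 to 4227 CPM in hnRNPab and 1661 to 2066 CPM in IgG libraries. Genes have names only through the authors' deposited tables, where listing went with direction, as given below. No cell content is therefore read from the marker levels. None of the follicle-cell or stromal marker symbols is named in the authors' tables, the only source of names, and of the blood markers only slc4a1.L is, at 27.0 to 40.5 CPM in Staufen, 104 to 163 CPM in hnRNPab and 25.0 to 35.7 CPM in IgG libraries.

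The authors' deposited tables and the library labels point different ways for these genes. All 5 are listed in the deposited table for hnRNPab, which holds 1965 genes, and in no row of the Staufen table, which holds 2457. In the authors' deposited table brf1.L ranks 1 by p-value with a log2 fold change of 2.57, txndc15.L ranks 253 with 1.73, pla2g4a.L ranks 441 with 1.77, tmtc2.L ranks 702 with 1.68 and sec62.L ranks 1453 with 1.03. All 5 deposited values are positive, whereas all 5 genes had less signal under the hnRNPab label than under the IgG label. Over the 1930 tested genes of the authors' deposited hnRNPab table, the difference between labels closest to the deposited fold changes was IgG minus hnRNPab. Its log2 values lay 0.52 from them in the median, against 1.98 for hnRNPab minus IgG. Pearson's r of that closest difference with the deposited values was 0.44, so it did not reproduce them gene by gene. For the authors' deposited Staufen table the closest was hnRNPab minus IgG, 0.47 away in the median over 2426 genes (r = 0.58). Staufen minus IgG lay 1.26 away. For the 448 tested genes in both of the authors' deposited tables, the Staufen value minus the hnRNPab value was set against hnRNPab minus IgG of the labelled libraries. The 2 differences lay 0.015 apart in the median, with a Pearson's r of 0.999998. For these genes, the authors' deposited Staufen values thus stood to their hnRNPab values as hnRNPab-labelled libraries stood to IgG-labelled ones. None of the differences between labels reproduced either of the authors' deposited tables gene by gene. "Highest in IgG" here therefore describes the labels alone. What a library is called below is its label, and the cause of the mismatch was not tested.

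brf1.L had the largest log2 fold change of the 5 for hnRNPab against IgG. It was at 158, 209.6, 199.7 and 199.7 CPM in Staufen replicates 1 to 4, at 61.6, 77.6, 79.3 and 75.7 CPM in hnRNPab replicates 1 to 4, and at 423, 594, 518 and 598 CPM in IgG replicates 1 to 4. The 3 groups did not overlap and stood in 1 order, hnRNPab lowest, Staufen between, IgG highest; all 4 Staufen libraries were above all 4 hnRNPab libraries for 15.5% of tested genes. Means were 192 ± 23.0 CPM in Staufen, 73.5 ± 8.08 CPM in hnRNPab and 533 ± 82.6 CPM in IgG libraries (SD, n = 4 each). These levels rest on 3028 to 3618 counts per Staufen library, 1063 to 1426 per hnRNPab library and 8424 to 13293 per IgG library. The log2 fold change was -1.48 (SE 0.134) for Staufen against IgG and -2.86 (SE 0.141) for hnRNPab against IgG.

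tmtc2.L had 63.1, 42.2, 47.4 and 58.3 CPM in Staufen replicates 1 to 4, 52.3, 41.9, 42.0 and 53.5 CPM in hnRNPab replicates 1 to 4, and 134, 109, 126 and 166 CPM in IgG replicates 1 to 4. Every IgG library was above every library of the other labels, whose ranges overlapped each other. The log2 fold changes were -1.34 (SE 0.161) for Staufen against IgG and -1.49 (SE 0.162) for hnRNPab against IgG.

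sec62.L rests on the fewest counts of the 5, with 142 to 251 counts per Staufen library, 122 to 173 per hnRNPab library and 374 to 917 per IgG library. Its levels were 7.35, 11.4, 9.86 and 13.9 CPM in Staufen replicates 1 to 4, 7.07, 9.90, 7.94 and 8.71 CPM in hnRNPab replicates 1 to 4, and 18.8, 34.1, 30.3 and 41.3 CPM in IgG replicates 1 to 4. The lowest IgG library, replicate 1, was still above the highest Staufen library, and the same replicate was lowest in all 3 groups. The log2 fold changes were -1.55 (SE 0.244) for Staufen against IgG and -1.89 (SE 0.247) for hnRNPab against IgG.

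txndc15.L and pla2g4a.L had somewhat lower means in Staufen than in hnRNPab libraries, with overlapping ranges. txndc15.L was at 28.4, 25.8, 30.8 and 37.6 CPM in Staufen, 30.2, 36.8, 40.6 and 43.3 CPM in hnRNPab, and 77.1, 80.7, 75.7 and 124 CPM in IgG replicates 1 to 4. Replicate 4 was the highest library of each group. Its log2 fold changes were -1.54 (SE 0.184) for Staufen against IgG and -1.24 (SE 0.182) for hnRNPab against IgG. pla2g4a.L was at 18.7, 27.8, 27.6 and 32.5 CPM in Staufen, 21.1, 35.7, 36.2 and 34.3 CPM in hnRNPab, and 44.9, 77.1, 66.7 and 85.7 CPM in IgG replicates 1 to 4. Replicate 1 was the lowest library of each group. Its log2 fold changes were -1.36 (SE 0.235) for Staufen against IgG and -1.11 (SE 0.233) for hnRNPab against IgG.

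**Figure D1:**
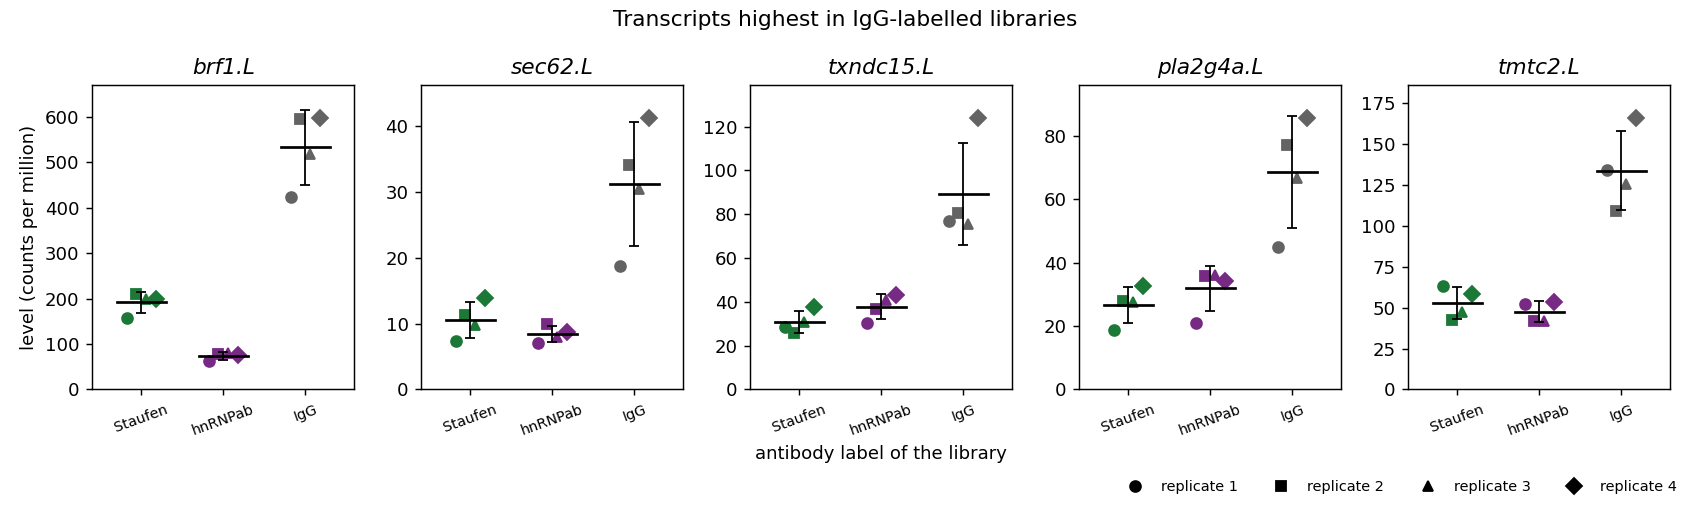
TMM-scaled CPM of the 5 transcripts in each of the 12 libraries, grouped by label, with the group mean. Every IgG library lies above all 8 others for each transcript, and brf1.L alone has its hnRNPab libraries below its Staufen libraries without overlap.

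All 5 members had each of their 4 IgG libraries above all 8 others, which 3.36% of tested genes did (699 of 20803). That pattern chose them, so nothing is read from the count. All 4 Staufen libraries were below all 4 IgG libraries for 5.67% of tested genes, and all 4 hnRNPab libraries for 16%. By deposited table the share was 22.8% of genes listed for hnRNPab alone (338 of 1482), 6.7% of genes in both tables, 0% of the 1978 genes listed for Staufen alone and 1.96% of genes in neither. Ranked from the lowest of 20803 fold changes of Staufen against IgG, the members stood at places 20 (sec62.L), 22 (txndc15.L), 27 (brf1.L), 35 (pla2g4a.L) and 38 (tmtc2.L). For hnRNPab against IgG, which shares the IgG libraries, the places were 22 (brf1.L), 207 (sec62.L), 544 (tmtc2.L), 981 (txndc15.L) and 1286 (pla2g4a.L). Falls in Staufen against IgG were also ranked among genes with a symbol that is not a placeholder and a mean of at least 5 CPM. Only genes called lower there, with no overlap between the groups, were kept. Near the limit of the choice in that ranking, tmtc2.L was inside at -1.34. The next named genes outside were tpp1.L at -1.33, myo6.S at -1.32 and ocln.S at -1.32 on the log2 scale for Staufen against IgG.

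**Figure D2:**
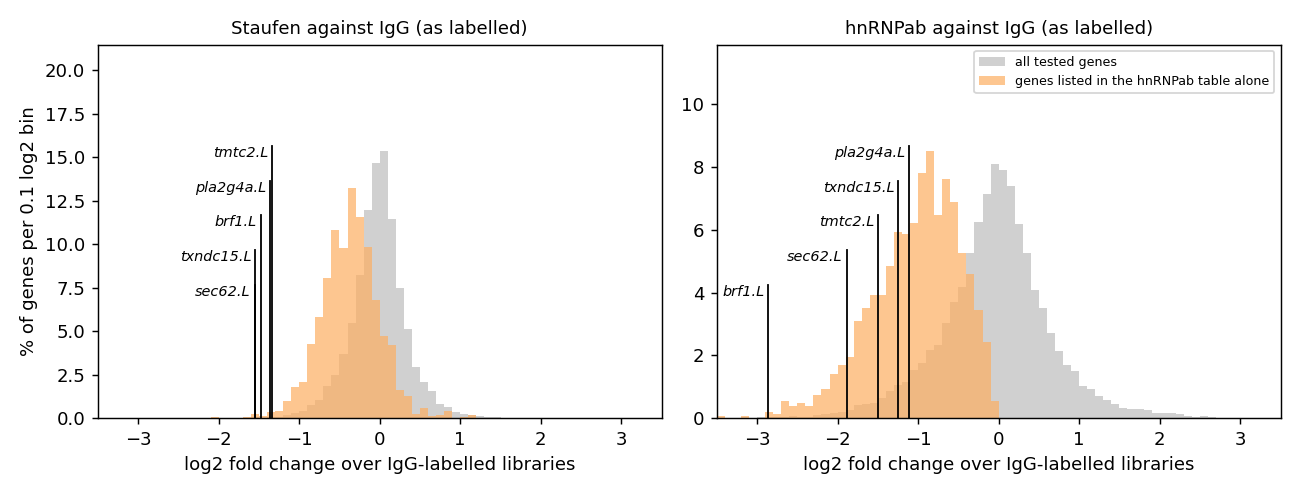
Distribution of log2 fold changes of all 20803 tested genes and of the 1482 tested genes listed for hnRNPab alone, as percent of genes per bin, with the 5 transcripts marked. The members lie in the lower tail for Staufen against IgG, between -1.55 and -1.34, and are spread from -2.86 to -1.11 for hnRNPab against IgG. The members were chosen on Staufen against IgG, so its narrower range may come from the choice.

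Each library was also set against the IgG library of the same number. brf1.L in Staufen libraries was 37.4, 35.3, 38.6 and 33.4% of its level in IgG replicates 1 to 4, and in hnRNPab libraries 14.6, 13.1, 15.3 and 12.7%. sec62.L in Staufen libraries was 39.2, 33.3, 32.5 and 33.6% of IgG, and in hnRNPab libraries 37.7, 29.0, 26.2 and 21.1%. The 2 genes' Staufen shares overlapped, and every hnRNPab share of brf1.L was below every one of sec62.L. In Staufen libraries the remaining members ranged from 30.3 to 40.6% of IgG for txndc15.L, from 36.1 to 41.6% for pla2g4a.L and from 35.1 to 47.2% for tmtc2.L. In hnRNPab libraries they ranged from 34.9 to 53.7% for txndc15.L, from 40.0 to 54.2% for pla2g4a.L and from 32.2 to 39.1% for tmtc2.L. Every one of these shares, of any member and number, was below 100%. The choice of genes highest in every IgG library fixes this, so nothing is read from it. In the ranking of named genes described above, the members also had the 5 largest falls in Staufen against IgG, so their narrow Staufen range may come from the choice. For sec62.L in Staufen against IgG, the SD of the log2 ratio was 0.123 within numbers, against 0.619 without regard to numbers, and for pla2g4a.L 0.0995 against 0.531. The SEs against IgG given above are from the fit without replicate numbers. With the number as a block, the members' SEs were smaller, at 0.0523 (brf1.L) to 0.0904 (sec62.L) for Staufen against IgG. For hnRNPab against IgG they were 0.0559 (brf1.L) to 0.0929 (sec62.L).

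**Figure D3:**
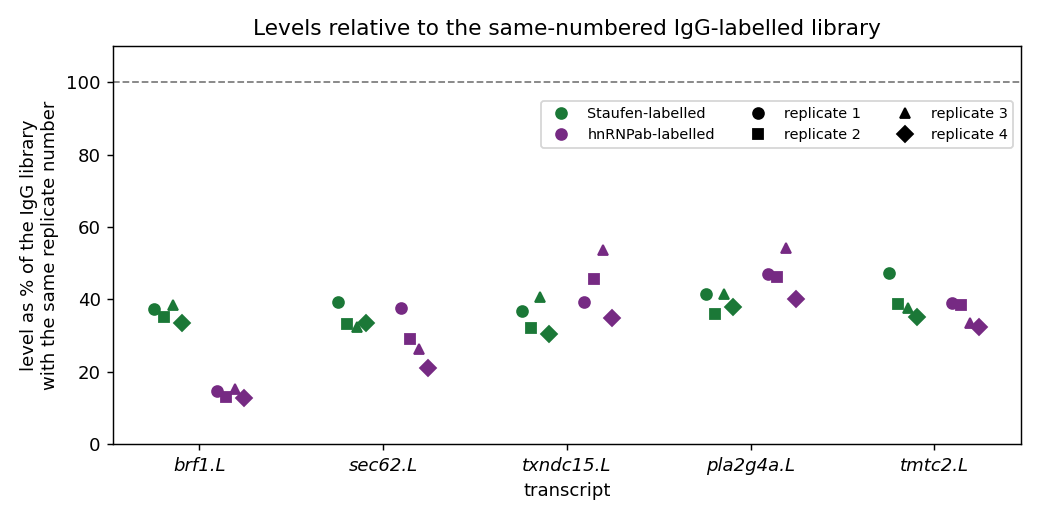
Level of each of the 5 transcripts in Staufen and hnRNPab libraries as percent of the IgG library with the same replicate number, one point per number. Staufen points lie between 30.3 and 47.2% for all 5 transcripts, whereas hnRNPab points run from 12.7% for brf1.L to 54.2% for pla2g4a.L. The members were chosen on Staufen against IgG, so nothing is read from the narrower Staufen range.

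Staufen against hnRNPab did not choose the members, though it shares the Staufen and hnRNPab libraries with the comparisons that did, and a choice of genes low in Staufen libraries can itself lower these values. Only brf1.L passed the test without regard to replicate numbers. It was 2.61-fold higher in Staufen than in hnRNPab libraries, a log2 fold change of 1.38 (SE 0.135, 95% interval 1.09 to 1.68, edgeR quasi-likelihood adjusted p = 1.01e-05), and its Staufen level was 256, 270.2, 252 and 264% of the hnRNPab level in replicates 1 to 4. Of all tested genes, 16.5% were called higher and 16.3% lower in this comparison, so a call on 1 member of 5 is near the background. Among genes listed for hnRNPab alone, 55.6% were called higher in Staufen and 0.607% lower, with a median log2 fold change of 0.62, while the median was 0.15 for the 5 members and 0.02 for all tested genes.

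The other 4 transcripts had smaller fold changes between the 2 antibodies than against IgG. Values against IgG chose them, so the choice alone can give this order and nothing is read from it. sec62.L had a log2 fold change of 0.33 for Staufen against hnRNPab (95% interval -0.20 to 0.86, edgeR adjusted p = 0.343), and tmtc2.L one of 0.15 (-0.19 to 0.50, adjusted p = 0.525). txndc15.L had -0.30 (-0.70 to 0.10, adjusted p = 0.247) and pla2g4a.L -0.26 (-0.76 to 0.25, adjusted p = 0.461). The far end of each interval was thus 0.50 or more from 0 on the log2 scale. This fit, which leaves out the replicate numbers, therefore did not exclude differences of that size for any of the 4. Same-numbered libraries deviated together, and with the replicate number as a block, which called 33.1% of all tested genes higher and 31.5% lower, all 5 members passed. In that blocked fit sec62.L was 0.33 (SE 0.107, 95% interval 0.11 to 0.55, edgeR adjusted p = 0.00758) and tmtc2.L 0.15 (SE 0.0642, 0.02 to 0.28, adjusted p = 0.0406), both higher in Staufen libraries. txndc15.L was -0.30 (SE 0.0776, 95% interval -0.46 to -0.14, adjusted p = 0.00103) and pla2g4a.L -0.25 (SE 0.0702, -0.39 to -0.11, adjusted p = 0.00219), both lower in Staufen libraries, in 4 of 4 numbers each. Of these 4 blocked intervals, only that of sec62.L reached 0.50 from 0. brf1.L stayed at 1.38 with an SE of 0.0547 (adjusted p = 2.22e-21). In fits of the block that left out 1 number at a time, added after seeing the data, sec62.L was lost without replicate 4 (edgeR adjusted p = 0.159), and tmtc2.L passed only without replicate 2 (adjusted p = 0.0277), with 0.206 without replicate 1, 0.117 without replicate 3 and 0.0520 without replicate 4.

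**Figure D4:**
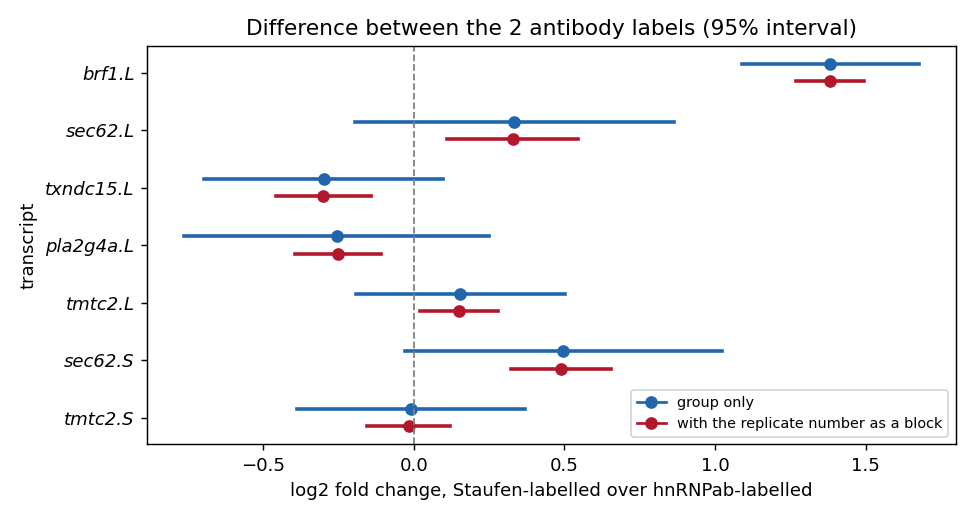
Log2 fold change of Staufen against hnRNPab for the 5 transcripts, sec62.S and tmtc2.S. The 95% intervals are from the fit without and with the replicate number as a block. brf1.L is at 1.38 in both fits. The other 4 members lie between -0.30 and 0.33 with intervals that include 0 only in the fit without the block. Without the block, sec62.S is at 0.50 and tmtc2.S at -0.01. The interval of tmtc2.S includes 0 in both fits, and that of sec62.S only without the block.

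The short-subgenome copies of sec62 and tmtc2 were also named, in the authors' deposited hnRNPab table alone, and both had fold changes against IgG nearer to 0 than the long copies had, a difference that was not tested. Only the long copies were chosen for low values against IgG, so the choice alone can give this order. Of all genes listed for hnRNPab alone, 82.9% were called lower in hnRNPab and 21.1% in Staufen libraries, each against IgG. Nothing particular to the short copies is therefore read from their calls. sec62.S averaged 19.9 ± 5.33 CPM in Staufen, 14.1 ± 2.77 CPM in hnRNPab and 35.0 ± 8.88 CPM in IgG libraries (SD, n = 4 each). Within numbers its Staufen level was 49.7 to 61.4% of IgG, where the long copy was 32.5 to 39.2%. The log2 fold change of sec62.S was -1.31 for hnRNPab against IgG (edgeR adjusted p = 0.00116, where 17.4% of tested genes were called lower). For Staufen against IgG, where 3.33% of tested genes were called lower, it was -0.82 (adjusted p = 0.0612, and 4.07e-11 with the replicate block). That p was 0.0149 without IgG replicate 1, 0.0497 without hnRNPab replicate 1 and 0.011 with DESeq2. For Staufen against hnRNPab, sec62.S was 0.50 (adjusted p = 0.144, 3.2e-06 with the block and 0.0360 without Staufen replicate 1).

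tmtc2.S averaged 34.6 ± 6.39 CPM in Staufen, 34.8 ± 4.31 CPM in hnRNPab and 56.3 ± 12.5 CPM in IgG libraries (SD, n = 4 each). It was lower in hnRNPab than in IgG libraries by a log2 fold change of -0.69 (edgeR adjusted p = 0.00811). For Staufen against IgG its log2 fold change was -0.70 (adjusted p = 0.0276, and 9.08e-11 with the replicate block). Without the block, this call was lost without Staufen replicate 1, 3 or 4 and without IgG replicate 2 or 4, where the adjusted p was 0.0619 to 0.0942. It was also lost with only the 2 groups fitted (adjusted p = 0.0633). Staufen and hnRNPab libraries differed by -0.01 on the log2 scale (adjusted p = 0.978). The long copy held 34.9 ± 2.20% of the reads of both sec62 copies in Staufen, 37.6 ± 3.22% in hnRNPab and 46.9 ± 1.99% in IgG libraries, and the IgG range of 45.8 to 49.8% did not overlap the others. For tmtc2 that share was 60.2 ± 7.55% in Staufen, 57.6 ± 4.33% in hnRNPab and 70.2 ± 6.29% in IgG libraries, with overlapping ranges. How the counting treated reads that match both copies is not given in the sources used here, so these shares are uncertain. The choice of the long copies can also itself raise their share in IgG libraries, so nothing is read from that order.

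Other genes of the same families had mixed values, which are not independent of the listing. tmtc3.L, pla2g15.S, pla2g6.L and txndc12.L are listed for hnRNPab alone. Of such genes, 82.9% were called lower in hnRNPab and 21.1% in Staufen libraries, each against IgG. Over all tested genes these shares were 17.4% and 3.33%. pla2g6.S and brf2.L are in both of the authors' deposited tables, and pla2g7.L is in the Staufen table alone. Nothing particular to the families is read from these values. tmtc3.L, a further member of the O-mannosyltransferase family, was lower in hnRNPab than in IgG libraries (log2 fold change -0.93, edgeR adjusted p = 0.000871). pla2g15.S, a lysosomal phospholipase A2, was lower in hnRNPab libraries by -1.61 (adjusted p = 2.62e-06), whereas for Staufen against IgG it was at -0.29 (adjusted p = 0.236, and 0.000836 with the block), and Staufen was above hnRNPab by 1.32 (adjusted p = 1.31e-05). pla2g6.L, a calcium-independent phospholipase A2, was lower in both, by -0.42 in Staufen (adjusted p = 0.00715) and by -0.35 in hnRNPab libraries (adjusted p = 0.00519). pla2g6.S and pla2g7.L passed neither test without the block, with -0.03 (adjusted p = 0.983) and -0.05 (adjusted p = 0.978) for Staufen, and 0.21 (adjusted p = 0.194; 0.00267 with the block) and 0.34 (adjusted p = 0.208; 0.00215 with the block) for hnRNPab against IgG. txndc12.L, an ER thioredoxin-like protein, had -0.14 for Staufen against IgG (adjusted p = 0.579) and was lower in hnRNPab libraries by -0.42 (adjusted p = 0.00761). brf2.L, which replaces Brf1 in the TFIIIB of another class of RNA polymerase III genes, had -0.17 for Staufen (adjusted p = 0.468; 0.0148 with the block) and 0.01 for hnRNPab against IgG (adjusted p = 0.945).

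**Figure D5:**
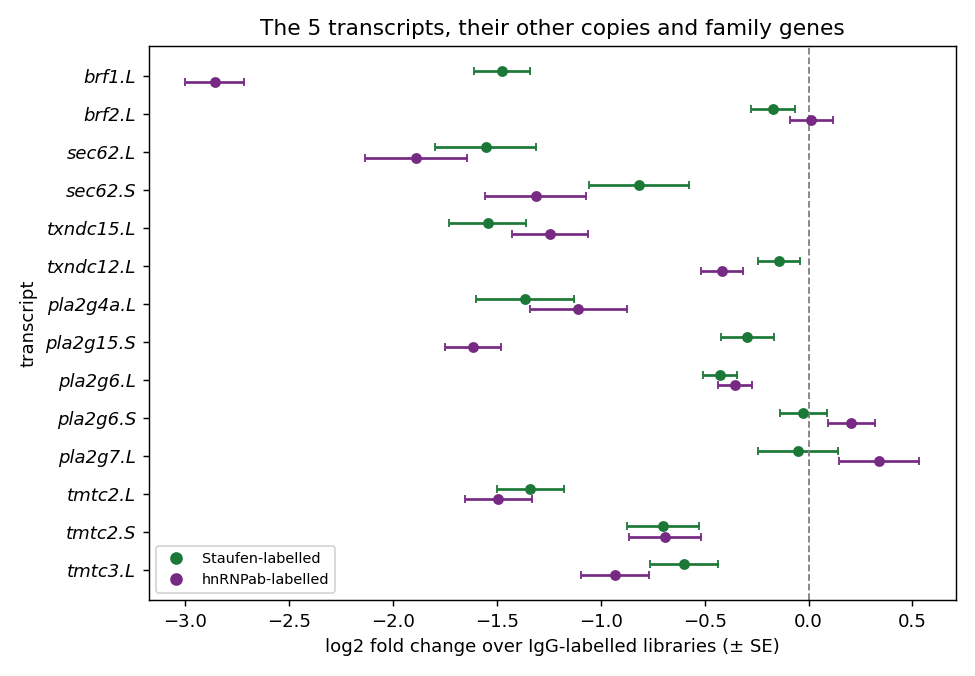
Log2 fold changes against IgG of the members, of the short-subgenome copies and of other named genes of the same families, for Staufen and hnRNPab, with standard errors. The member values of brf1.L, sec62.L and tmtc2.L lie below those of brf2.L, sec62.S and tmtc2.S in both comparisons. Values against IgG chose the members, so nothing is read from this order.

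In the RefSeq annotation, whose build may differ from the one counted, brf1.L overlaps btbd6.L, a BTB-domain protein gene looked up after its values had been seen. The counting is not stated to use strand, so reads of the 2 genes could not be told apart where they overlap. btbd6.L was at 1.63 ± 0.485 CPM in Staufen, 4.80 ± 0.461 CPM in hnRNPab and 1.72 ± 0.371 CPM in IgG libraries (SD, n = 4 each) on at most 90 counts per library, with a log2 fold change of 1.47 for hnRNPab against IgG (edgeR adjusted p = 0.000745). No overlapping gene was annotated for the other 4 members.

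Genes that act with the members were counted in 7 lists by role, leaving the members out. The named genes come from the authors' deposited tables, and direction went with the table: of the 1482 genes listed for hnRNPab alone, 21.1% were called lower and 1.15% higher in Staufen, and 82.9% lower and 0% higher in hnRNPab libraries, each against IgG. The list counts are therefore not independent of the listing, and nothing particular to any of the 7 lists is read from them. Of 5 RNA polymerase III genes, 4 were higher and none lower in hnRNPab than in IgG libraries (background 16.3% higher), opposite to brf1.L. Of the list, 4 genes are in the authors' deposited Staufen table alone, whose 1978 tested genes had a median log2 fold change of 0.96 for hnRNPab against IgG, so nothing particular to the list is read from this count. tbp.S and tbp.L, which encode the TATA-binding protein that joins Brf1 in TFIIIB, rose by log2 fold changes of 2.36 (edgeR adjusted p = 9.06e-08) and 1.75 (adjusted p = 3.89e-07), and gtf3c2.L, a TFIIIC subunit, by 1.52 (adjusted p = 8.5e-05). For Staufen against IgG tbp.S was 0.60 (adjusted p = 0.00771) and tbp.L 0.52 (adjusted p = 0.0121), the only calls of that list.

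Of 10 ER translocation and membrane insertion genes, 5 were higher and 1, sec62.S, was lower in hnRNPab than in IgG libraries. Without the block, 16.3% of tested genes were called higher and 17.4% lower in this comparison. Of these translocation genes, 9 are in the authors' deposited Staufen table alone, so nothing particular to the list is read from this count. The membrane complex subunits emc3.L and emc10.L were higher by 1.49 (edgeR adjusted p = 0.0001) and 1.10 (adjusted p = 8.09e-05). Of 4 ER-phagy genes, retreg2.L was higher by 1.51 (adjusted p = 3.33e-07), while atl3.L, an ER-shaping atlastin, was lower by -1.40 (adjusted p = 2.65e-05), as was sec62.S. Of 5 thioredoxin-fold genes, 2 were higher and 2 lower. In this list and the ER-phagy list, genes called higher are listed for Staufen alone and genes called lower for hnRNPab alone. dnajc10.L rose by 0.65 (adjusted p = 0.000159) and pdia5.S by 0.51 (adjusted p = 0.00259), both protein disulfide isomerases, and tmx4.L was at 0.88 (adjusted p = 0.069, or 3.74e-14 with the block, 0.0353 without hnRNPab replicate 2 and 0.0421 without Staufen replicate 2; 0.0317 with DESeq2 and 0.0499 with only the 2 groups fitted). The block called 31.3% of tested genes higher and 33.3% lower in hnRNPab against IgG.

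Of 3 ciliary transition zone genes, b9d1.L rose in hnRNPab libraries by 2.17 (edgeR adjusted p = 4.57e-05) and b9d2.L by 0.74 (adjusted p = 0.000837), while tmem67.S fell by 0.84 (adjusted p = 2.84e-05). The shares over all tested genes for hnRNPab against IgG were again 16.3% higher and 17.4% lower. Among genes listed for hnRNPab alone, 82.9% were called lower and 0% higher. In this list and the next 2, every gene called lower is listed for hnRNPab alone. Every gene called higher is listed for Staufen alone, so nothing particular to these lists is read from the counts. Of 5 other phospholipase A2 and eicosanoid genes, none was higher and 2 were lower, pla2g15.S and pla2g6.L. ptges.L, a prostaglandin E synthase, was at 0.72 (adjusted p = 0.0614; 0.000172 with the block, 0.0381 without IgG replicate 1, 0.0437 without Staufen replicate 1 and 0.0357 with DESeq2). Of 4 other O-mannosylation genes, 3 were lower (b4gat1.L by -1.10, adjusted p = 3.37e-05, with tmtc3.L and tmtc2.S) and dag1.S, which encodes the O-mannosylated protein dystroglycan, was higher by 0.74 (adjusted p = 5.73e-06).

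For Staufen against IgG, the lists other than RNA polymerase III gave few calls outside the members. They were 2 higher among translocation genes (emc2.L and emc3.L, where 4.45% of tested genes were called higher), 1 lower each among thioredoxin-fold (dnajc10.S), ciliary (tmem67.S) and phospholipase genes (pla2g6.L), 3 lower among O-mannosylation genes (tmtc2.S, tmtc3.L and dag1.S), and none among ER-phagy genes, where 3.33% of tested genes were called lower. In fits without the replicate block, the calls on emc2.L, emc3.L, tmtc2.S, tmtc3.L and dag1.S were fragile. With the block all 5 passed, with edgeR adjusted p from 1.13e-12 (emc3.L) to 8.44e-05 (dag1.S). emc3.L and tmtc3.L were lost in 9 of the 12 fits that left out 1 library and the other 3 in 5 each, all 5 among them without Staufen replicate 3 and without IgG replicate 2. All 5 were also lost when only the 2 groups compared were fitted (edgeR adjusted p = 0.0631 to 0.0839), and dag1.S and tmtc3.L without the filter on low counts (adjusted p = 0.175 and 0.0587). With the replicate block the counts higher and lower were 3 and 1 for RNA polymerase III, 4 and 1 for translocation, 0 and 3 for ER-phagy, 1 and 2 for thioredoxin-fold, 2 and 1 for ciliary, 0 and 2 for phospholipase and 0 and 4 for O-mannosylation genes, where 19% of tested genes were called higher and 20.5% lower.

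The named genes whose levels ran most like a member's were picked from 2577 candidates by Pearson's r of log2(CPM + 1) over the 12 libraries, which share the replicate numbers. For brf1.L they were krit1.L (r = 0.994), spred2.L (0.991) and trip13.L (0.990), and for sec62.L zfyve16.L (0.987) and notum.L (0.987). For txndc15.L they were jade3.L (0.973), rhov.L (0.969) and rhov.S (0.963), for pla2g4a.L mier1.L (0.991), galnt1.L (0.978) and zbtb5.L (0.977), and for tmtc2.L smo (0.980), dhdds.L (0.974) and lpin1.S (0.969). Of the 15 genes so picked, 13 are listed for hnRNPab alone and 2, galnt1.L and zbtb5.L, in both of the authors' deposited tables. krit1.L, which encodes a cerebral cavernous malformation protein in humans, was lower by -1.12 in Staufen (edgeR adjusted p = 0.000616) and by -2.13 in hnRNPab libraries (adjusted p = 6.44e-07), each against IgG. It was picked for its likeness to brf1.L in these same libraries, so these values are a description and not a test. Once each number's mean was subtracted, r of each of the 15 with its member was higher, at 0.978 to 0.997. Only 2 of the 15 remained among the nearest genes, because other candidates then had a still higher r. Among the 5 members, r between pairs was 0.743 to 0.933. The members were chosen for the same pattern over these libraries, so high r between them follows from the choice.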

How the data were processed

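Per the submitters' processing notes, reads were aligned with STAR 2.6.1b, counted with HTSeq 0.9.1 and tested with edgeR. Which genome build, annotation or strand option they used is not stated in the sources at hand. The authors deposited whole-number counts per gene for each library and 2 result tables with log2 fold changes, log2 average CPM, an F score and p-values, whose control the file headers do not name. Here counts were used as deposited, without HTSeq's summary lines. edgeR 4.0.16 (R 4.3.3, limma 3.58.1) was run with TMM scaling, its filter on low counts, 1 quasi-likelihood fit over 12 libraries with the label as the only term, and Benjamini-Hochberg adjustment over 20803 genes at 0.05, after tests on simulated data. CPM are TMM-scaled and not per length, so levels are not compared between genes. With 14147584 to 22103431 gene counts per library, depth sets the precision, and intervals cover the spread between libraries. Alternatives were DESeq2 1.42.0, other size factors, no filter, 2-group fits, a replicate block and leaving out each library.

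Gene symbols come from the deposited tables; RefSeq names of the Xenopus_laevis_v10.1 assembly served only for list sizes and neighbours. No column of per-sample values was left unused (0). Deviations from the group means of same-numbered libraries correlated at r = 0.809 to 0.908 in 12 pairs, against -0.535 to -0.0983 in 36 pairs of other numbers, so the numbers, which come from the sample titles, pair the libraries. The highest r between any 2 libraries was 0.991, and no 2 were identical. The members and lists were chosen with earlier results of these data known. Named besides the members are copies and family genes in the deposited tables, up to 4 genes per list by size of change in hnRNPab against IgG, 3 genes most like each member (1 of these is not reported here), and the next 3 falls in Staufen against IgG with a mean of at least 5 CPM; the genes of the lists named for Staufen against IgG, and btbd6.L, were named after their values were seen.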

Additional observations from a re-analysis of the deposited data

Results flagged for a closer look

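Groups of 4 libraries were examined over members, copies, the other family genes and copy shares. Of these 48 groups, 4 had a library far from the other 3 by Dixon's criterion, where chance flags about 1 in 20. All 4 were of members or copy shares. pla2g4a.L in hnRNPab replicate 1 was at 21.1 CPM, against 34.3 to 36.2 CPM in the other 3. txndc15.L in IgG replicate 4 was at 124 CPM, against 75.7 to 80.7 CPM in the others. The long copy's share of sec62 reads was 49.8% in IgG replicate 4 and 45.8 to 45.9% in the others. The long copy's share of tmtc2 reads was 60.9% in IgG replicate 2 and 72.2 to 74.0% in the others.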

How the results depend on the processing

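The members' fold changes against IgG gave 170 values over the alternatives: 161 moved by less than the spread between replicates, 9 moved by more and none changed sign, with a range of -2.94 to -0.95 on the log2 scale. The replicate block raised the genes called in Staufen against IgG to 4259 lower and 3944 higher, in hnRNPab against IgG to 6937 lower and 6505 higher, and in Staufen against hnRNPab to 6551 lower and 6880 higher. The 693 genes called lower in Staufen against IgG became 1233 with DESeq2, 442 without the filter and 383 to 960 when 1 library was left out, with 383 without IgG replicate 2, 421 without IgG replicate 3 and 457 without Staufen replicate 4. For Staufen against hnRNPab the block brought 4 members past the threshold, sec62.L at 0.33, txndc15.L at -0.30, pla2g4a.L at -0.25 and tmtc2.L at 0.15. With the block and replicate number 1, 2, 3 or 4 left out, sec62.L was 0.40, 0.37, 0.33 and 0.19, txndc15.L -0.37, -0.24, -0.26 and -0.34, and pla2g4a.L -0.27, -0.22, -0.20 and -0.32, while tmtc2.L ranged from 0.10 to 0.19. Without the block, leaving out 1 library changed no member's call, with ranges of 1.30 to 1.46 for brf1.L, 0.17 to 0.47 for sec62.L, -0.41 to -0.23 for txndc15.L, -0.42 to -0.13 for pla2g4a.L and 0.05 to 0.24 for tmtc2.L. 4 values near 0 changed sign when 1 library was left out: tmtc2.S in Staufen against hnRNPab (-0.14 to 0.064), brf2.L in hnRNPab against IgG (-0.045 to 0.11), and pla2g6.S (-0.099 to 0.041) and pla2g7.L (-0.14 to 0.081) in Staufen against IgG. The other values of single named genes were each refitted under every alternative. Of these fits, 40 no longer passed the threshold and 19 newly passed it, in the same direction. The 40 were all fits of dag1.S, emc2.L, emc3.L, tmtc2.S and tmtc3.L in Staufen against IgG. The 19 were fits of brf2.L, pla2g15.S, pla2g6.S, pla2g7.L, ptges.L, sec62.S and tmx4.L. Of the 15 genes most like a member, 2 remained among the nearest with each number's mean subtracted, although r of all 15 was then higher. The cause of these changes was not tested. Low counts limit sec62.L most, with 122 counts in hnRNPab replicate 1.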
